A study of Mus musculus with 32 samples.

Results

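C1HDT and C1HV were the cells of the high β-catenin fraction after 4 days of differentiation, with both inducers kept on or withdrawn, and they make up 8 of the 32 libraries of the series, 4 in each group. Both groups were chosen by their labels, and no measured value entered the choice. C1 is a mouse embryonic stem cell (ESC) line in which the whole β-catenin coding sequence had been removed and which stably carries a transgene switched on by doxycycline (dox). Its product joins a destabilizing domain to the red fluorescent protein mCherry and to β-catenin with the mutation S33Y, which keeps it active. Dox starts transcription of the fusion, and trimethoprim (TMP) stabilizes the protein. The cells of both groups had been kept for 3 passages in 2i/L, a medium with a pair of kinase inhibitors and leukaemia inhibitory factor (LIF), although the labels name serum and LIF. All were treated for 48 h with 100 ng/mL dox and 10 µM TMP, and living cells with a high mCherry signal (C1H) were sorted and plated in NDiff227, a medium that lets ESCs leave pluripotency towards neuroectoderm. C1HDT then received 100 ng/mL dox and 10 µM TMP until day 4 and C1HV the solvent DMSO in their place. The moderate fraction was treated likewise (C1MDT and C1MV), and C1T had TMP only, before and during differentiation, and never dox. The labels call the replicates biological, and the study describes samples averaged within a group as coming from 1 experiment, so p-values measure the spread between these samples, which may be partly technical. C1HDT and C1HV differ in dox, in TMP and in the fusion, and the shares of these in a difference cannot be told apart. All groups come from this 1 knockout line with its transgene, and no line with endogenous β-catenin is compared here.

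β-Catenin is the effector of canonical Wnt signaling. Without a Wnt ligand a complex of Axin, Apc and the kinase Gsk3 marks it for degradation, and with a ligand it reaches the nucleus, binds TCF/LEF factors and activates target genes, several of which feed back on the pathway. It is also part of cell-cell junctions, where it links cadherins to the cytoskeleton. In mouse ESCs, inhibition of Gsk3 helps to keep the naive state, largely because β-catenin relieves the repression of naive genes by Tcf7l1, and cells that leave this state pass through a formative, epiblast-like state before they choose a lineage.

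Libraries were prepared from the 3′ ends of transcripts, so counts are not divided by gene length and levels were compared between groups and not between genes. Read counts on genes were 2127415 to 3005145 in C1HDT and 1502559 to 2318126 in C1HV (exact two-sided permutation test, p = 0.0571). Within a group, libraries correlated at 0.978 to 0.981 in C1HDT and 0.969 to 0.976 in C1HV (Pearson's r of log2 CPM across genes, CPM being the counts of a gene scaled to a common library total). The share of reads outside annotated features was 11.0% ± 0.654 in C1HDT and 13.4% ± 0.906 in C1HV (SD, n = 4), with no overlap (exact permutation test, p = 0.0286, the smallest that 4 against 4 libraries allow). This share was taken of the reads on genes, outside features or ambiguous, without those not uniquely placed. No library went against its label.

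Of 15280 genes tested, 2442 (16.0%) differed between C1HDT and C1HV at an adjusted p under 0.05 (edgeR quasi-likelihood test, Benjamini-Hochberg), of which 1390 (9.10% of the genes tested) were higher and 1052 (6.88%) were lower in C1HDT. With scaling by library size alone the split turned to 1097 higher and 1331 lower, while the median change of all genes moved only from 0.00 to -0.05 on the log2 scale. The differences were mostly small: the median absolute log2 fold change of the called genes was 0.51, 12 genes exceeded a log2 fold change of 2 and 56 were under -2. For 11 of those 12 and 46 of those 56, the group with the lower level had at most 3 counts in every library. The libraries of the groups did not overlap for 1540 genes that were higher in C1HDT (10.1%) and for 1080 that were lower (7.07%). In the plot of change against level, most genes of cholesterol synthesis lay above and most naive genes below the bulk of genes.

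**Figure D1:**
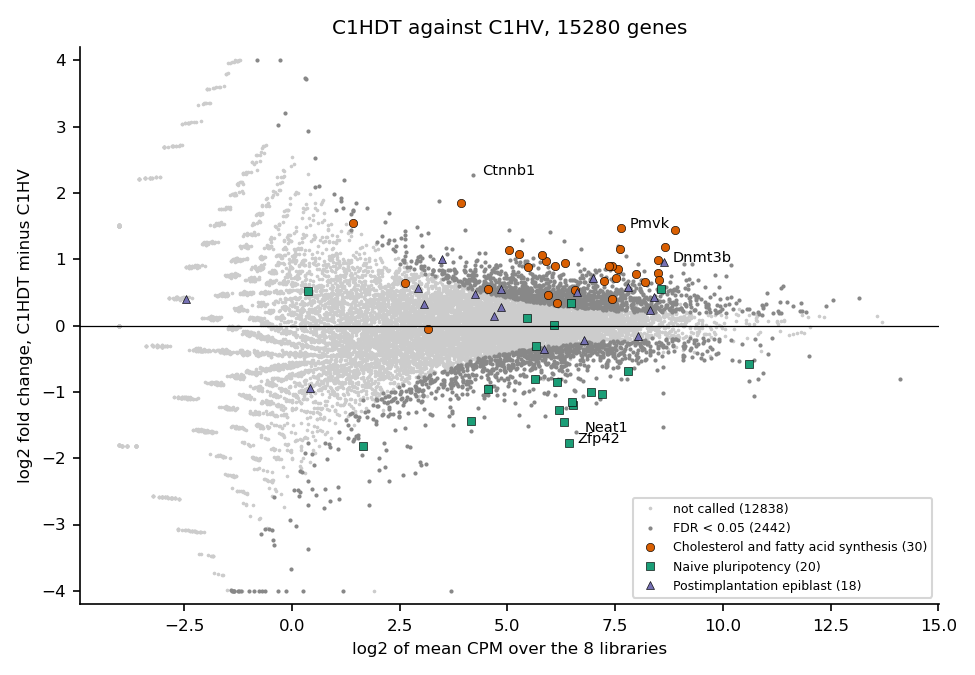
Log2 fold change of C1HDT over C1HV against the log2 mean CPM of the 8 libraries for the 15280 genes tested, with values beyond 4 drawn at 4 and -4; cholesterol and fatty acid synthesis, naive pluripotency and postimplantation epiblast genes are coloured. All sterol genes but Srebf1 lie above 0 and most naive genes below it.

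The first check of the labels was Ctnnb1 (chr9:120929216-120960507, GRCm38), which encodes β-catenin and whose counts can include the fusion. Ctnnb1 was at 28.6, 36.3, 30.2 and 28.3 CPM in the C1HDT libraries and at 4.13, 6.25, 8.6 and 5.86 CPM in the C1HV libraries. Every C1HDT library was above every C1HV library, in the direction of the labels, with a log2 fold change of 2.26 ± 0.23 (SE, adjusted p = 3.6e-15, n = 4 against 4). The sorted C1H cells had 41.2 ± 5.7 CPM before plating and C1T cells had 9.74 ± 2.47 CPM (SD, n = 4). The line lacks the endogenous coding sequence, and where the reads without dox came from was not tested.

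No feedback target or ligand of the Wnt pathway passed the edgeR test. None of the 15 feedback targets tested passed it, against 9.10% and 6.88% of all genes, with 1 at an unadjusted p under 0.05, and their median log2 fold change was -0.07. With DESeq2, or with scaling by library size alone, 1 was lower. Axin2, the usual readout of canonical Wnt activity and a scaffold of the destruction complex, was at 5.1, 2.87, 2.93 and 4.09 CPM in C1HDT and at 5.68, 2.84, 6.45 and 1.95 CPM in C1HV. These ranges overlapped, and the difference was -0.21 ± 0.44 on the log2 scale (SE, adjusted p = 0.82). At these few counts per library only a large change could have been seen. The classical targets Sp5, T, Lgr5, Rnf43, Dkk4 and Apcdd1 were below the filter on low counts, as were 9 of the 19 Wnt ligands, and none of the 10 ligands tested passed with edgeR or DESeq2, with 1 at an unadjusted p under 0.05. Low counts did not hold for all targets. The summed level of the 15 tested was 628 to 677 CPM in C1HDT and 642 to 758 CPM in C1HV. Of them, 4 had at most 3 counts in every library of both groups. No direction is given for these targets or ligands.

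Among the Wnt receptors, 4 of 15 were lower in C1HDT (26.7%, against 6.88% of all genes) and none was higher, with a median of -0.35, or -0.29 with members at 3 counts or fewer in 1 group set to their bound. Fzd10, Fzd7, Fzd5 and Fzd3, which belong to the Frizzled family that binds Wnt, fell by 1.37, 0.47, 0.46 and 0.44 on the log2 scale. For all 4 the C1HDT libraries lay below the C1HV libraries, although leaving out 1 library ended the call for Fzd5 (adjusted p = 0.117 without replicate 3 of C1HDT) and Fzd3 (adjusted p = 0.116 without replicate 2 of C1HV). With the trend of the changes against transcript length removed, a setting chosen after the data were seen, Fzd5 was at -0.37 (adjusted p = 0.068) and Fzd3 at -0.23 (adjusted p = 0.30), so that both calls ended. In the destruction complex, with 1 higher and 1 lower of 11 members tested (9.09% each, near the share of all genes), the kinase gene Gsk3a was higher (0.40, adjusted p = 0.0478) and the scaffold gene Apc was lower (-0.39, adjusted p = 0.00318), although Apc was at -0.19 (adjusted p = 0.23) with the length trend removed. Of 12 TCF/LEF factors and their corepressors, 2 were higher (16.7%) and 1 lower (8.33%), of which Lef1 (0.51) and Tle4 (0.25) were higher and Tle3 (-0.80) was lower. Lef1, a DNA-binding partner of β-catenin that is also an epiblast gene, was at 114 ± 6.14 CPM in C1HDT and 81.3 ± 18.1 CPM in C1HV. In C1T, which never had dox, it was at 270.1 ± 19.6 CPM. For both Gsk3a and Tle4, 6 of the 8 omissions of 1 library ended the call, most clearly Gsk3a (adjusted p = 0.327 without replicate 2 of C1HV) and Tle4 (adjusted p = 0.238 without replicate 1 of C1HDT), and other settings, among them RLE scaling, library size scaling and DESeq2, ended both calls as well. Of 9 catenins and cadherins tested besides Ctnnb1, only Ctnnd2 passed, at -1.08 (adjusted p = 0.0498), its libraries overlapped and 6 of the 8 omissions of 1 library ended the call, most clearly for Ctnnd2 (adjusted p = 0.328 without replicate 3 of C1HV). Settings that ended its call included DESeq2, no filter on low counts and the length trend removed.

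**Figure D2:**
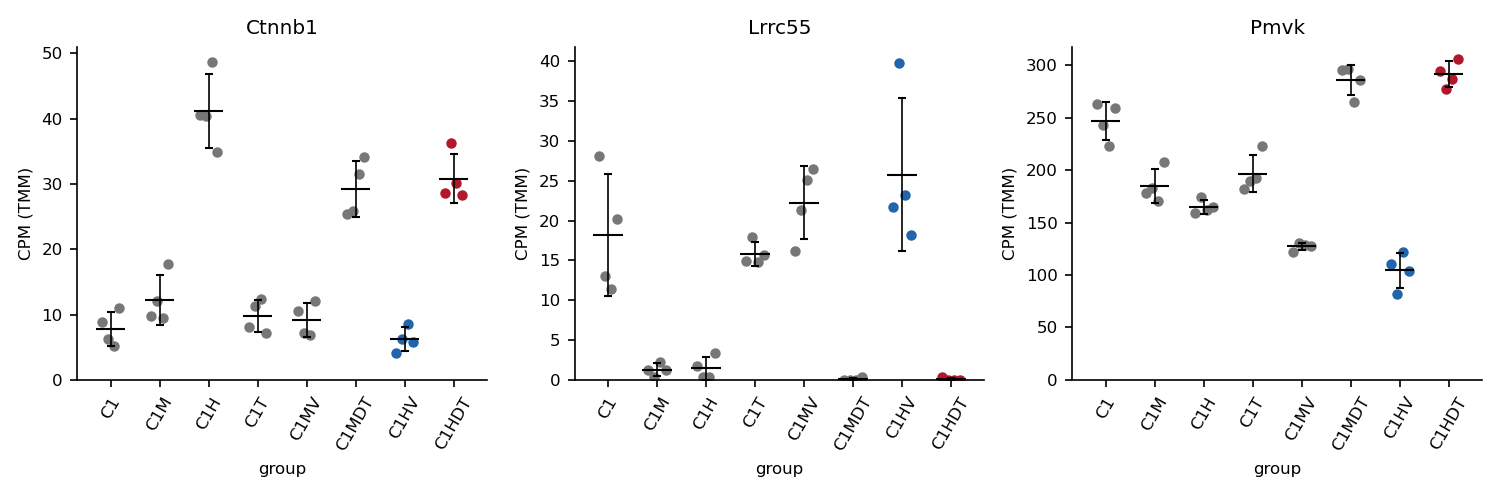
CPM of Ctnnb1, Lrrc55 and Pmvk in each of the 4 libraries (points) of the 8 groups, with the mean and SD (bars). Ctnnb1 is highest in C1H, C1HDT and C1MDT, Lrrc55 is near 0 in both groups differentiated with dox and TMP, and Pmvk has its lowest means in C1HV and C1MV.

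Among the 39 lists described here, chosen with earlier results known, that of cholesterol and fatty acid synthesis had the highest share of calls. Of its 30 members, all tested, 28 were higher in C1HDT (93.3%, against 9.10% of all genes) and none was lower, with a median log2 fold change of 0.89 against 0.00 for all genes. The libraries of 26 members did not overlap. Tm7sf2 (0.64) and Srebf1 (-0.06), which encodes a transcription factor for lipid synthesis, did not pass. The pathway makes sterols from acetyl-CoA through mevalonate, and its genes are textbook targets of the SREBP factors, which act when membrane sterols are low.

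The mevalonate steps carried some of the highest folds. Pmvk (chr3:89454541-89469013), whose product phosphorylates phosphomevalonate, was at 295, 277, 287 and 306 CPM in C1HDT and at 110.1, 81.8, 122 and 103 CPM in C1HV. The lowest C1HDT library was thus above the highest C1HV library, with a log2 fold change of 1.47 ± 0.09 (SE) and the lowest adjusted p of all genes (1.5e-32). Mvd, the decarboxylase of the next step, was at 703, 799, 608 and 661 CPM in C1HDT and 271, 188, 287 and 270.0 CPM in C1HV (1.44 ± 0.13, adjusted p = 9.9e-09). Fdps, which makes farnesyl diphosphate, was at 270.1 ± 23.5 CPM against 121 ± 14.5 CPM (1.15 ± 0.09, adjusted p = 1.2e-22). Among the later sterol steps, Lss (1.08), Nsdhl (1.14), Dhcr7 (1.06) and Msmo1 (0.99) were higher. Hmgcs1, a synthase at the start of the pathway, differed by 0.69 ± 0.07 (adjusted p = 4.6e-14).

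On the fatty acid side, Fasn, the fatty acid synthase, was at 512, 664, 545 and 522 CPM in C1HDT and 267, 199, 272 and 249 CPM in C1HV. Its libraries did not overlap (1.18 ± 0.12, adjusted p = 4.9e-08). Aacs, which activates acetoacetate for lipid synthesis, and Acsl4, which activates arachidonic acid, were outside the list and rose by 1.88 and 1.29 without overlap. The level in C1T lay nearer to C1HDT than to C1HV for 23 of the 28 called members, as for Pmvk at 197 ± 17.8 CPM, Mvd at 428 ± 19 CPM and Fasn at 452 ± 47.2 CPM. The order of the means for Pmvk was C1HV, C1T and C1HDT, and of these only C1HV had no TMP during differentiation.

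**Figure D3:**
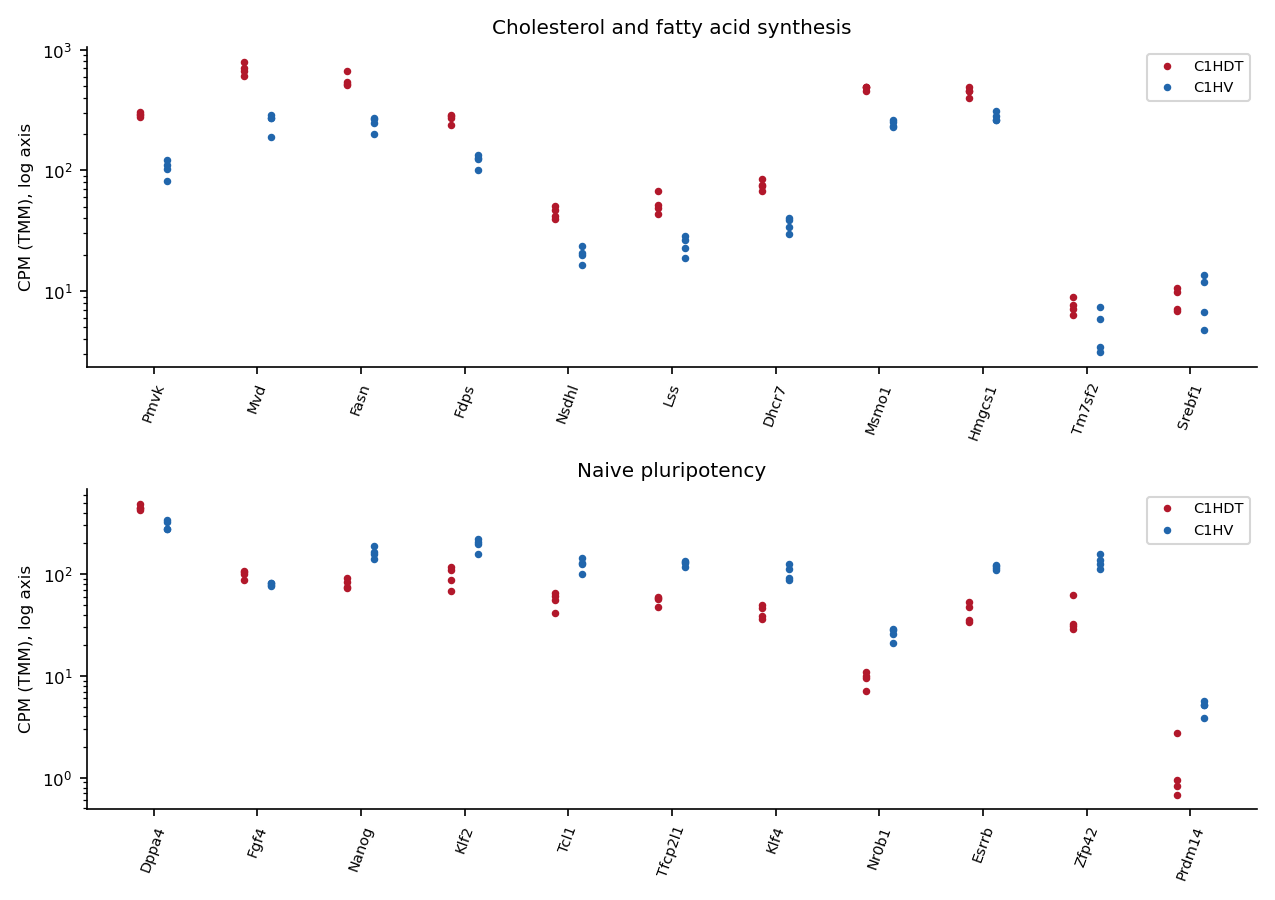
CPM of the genes of cholesterol and fatty acid synthesis and of naive pluripotency that the text names in the 4 C1HDT and the 4 C1HV libraries, on a log axis. For most of the genes drawn the points of the groups are apart, upwards for the sterol genes and downwards for the naive genes in C1HDT.

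Since these genes moved together, the 5 letters CCAAT, bound by the factor NF-Y and a usual element of sterol gene promoters, were sought on both strands in the RefSeq windows from 250 bases before to 50 bases after each gene start (GRCm38.p6). The motifs were chosen with the results known. Of the 20 list members with a window, 19 held it, against 43.0% of the 11667 genes tested that have a window, 48.3% of the 1130 higher and 43.3% of the 804 lower in C1HDT. 1 stretch is shown for each of 3 mevalonate pathway genes named above and for Fasn, with CCAAT or its complement ATTGG in capitals. The stretches lie at chr13:119690276-119690340 on the + strand (Hmgcs1), chr3:89454375-89454439 on the + strand (Pmvk), chr8:122443423-122443479 on the - strand (Mvd) and chr11:120824572-120824636 on the - strand (Fasn), where a CCAAT and an ATTGG overlap.
Hmgcs1: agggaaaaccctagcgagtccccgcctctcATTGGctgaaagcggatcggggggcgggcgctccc
Pmvk: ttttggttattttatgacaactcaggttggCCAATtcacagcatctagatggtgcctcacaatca
Mvd: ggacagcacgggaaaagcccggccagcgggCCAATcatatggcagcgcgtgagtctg
Fasn: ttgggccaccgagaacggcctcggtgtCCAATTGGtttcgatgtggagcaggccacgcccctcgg
The first motif shown starts 45, 136, 27 and 62 bases before the gene start in this order. TCACNCCAC, the letters of a sterol regulatory element, were in 1 of the 20 members (5.0%) and in 1.51% of the genes tested, the TCF/LEF letters CTTTGAT in 0 of the 20 and in 3.09% of the genes tested, and the TCF/LEF letters CTTTGTT in 2 of the 20 (10.0%) and in 4.86% of the genes tested. A match to letters is a description of the sequence and not a binding site.

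Naive pluripotency genes moved the other way. Of 20 members, all tested, 14 were lower in C1HDT (against 6.88% of all genes), 2 were higher and the median was -0.91. All 16 called members had groups that did not overlap. Esrrb, a nuclear receptor of the naive network, was at 53.7, 47.8, 35.6 and 33.7 CPM in C1HDT and at 111, 114, 119.6 and 122 CPM in C1HV (-1.45 ± 0.11, adjusted p = 1.8e-18). Tfcp2l1, a transcription factor of the same network, was at 58.8, 60.2, 47.3 and 56.9 CPM against 132, 129, 118 and 134 CPM (-1.19 ± 0.09, adjusted p = 9.0e-23). Zfp42 (Rex1), a marker of the naive state, was at 62.9, 32, 30.6 and 28.6 CPM against 113, 157, 137 and 126 CPM (-1.77 ± 0.18, adjusted p = 2.5e-08). In each of these genes all C1HDT libraries were low, although replicate 1 of C1HDT was clearly above the other 3 for Zfp42.

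Nanog, a core factor of pluripotency, fell by 1.01 on the log2 scale from 163 ± 19.5 to 80.6 ± 7.65 CPM, Klf4 by 1.28 from 104 ± 17 to 42.8 ± 6.56 CPM, Klf2 by 1.03 and Nr0b1 by 1.43. Prdm14, a repressor that protects the naive state, fell by 1.82, from 4.98 ± 0.776 to 1.3 ± 0.955 CPM. The sorted C1H cells had been higher than either group at day 0, with 570.2 ± 17.7 CPM for Nanog, 869 ± 55.7 CPM for Klf4 and 1202 ± 59 CPM for Tfcp2l1. The 2 higher members were Dppa4 (0.56), a chromatin protein of pluripotent cells, and Fgf4 (0.33), a growth factor that drives exit from the naive state. Leaving out 1 library ended the call of Fgf4 (adjusted p = 0.0684 without replicate 1 of C1HDT). C1T was nearer to C1HDT for 10 of the 16 called members, with Nanog at 90.0 ± 5.68 CPM. In bulk libraries fewer cells of a type and less RNA per cell cannot be told apart. Tfcp2l1 and Tcl1 (-1.15), which codes for an activator of Akt, had levels in C1T close to or under those in C1HDT, at 64.5 ± 8.65 and 33.4 ± 6.74 CPM.

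The general pluripotency genes were mixed, with 3 of 12 higher and 1 lower (against 9.10% of all genes higher and 6.88% lower). With RLE or library size scaling or DESeq2, 3 were higher and 2 lower. Sox2, the pluripotency factor that is also a neural one, was at 305, 241, 213 and 269 CPM in C1HDT and 447, 596, 484 and 562 CPM in C1HV, which did not overlap (-1.02 ± 0.09, adjusted p = 1.3e-13). Utf1 (0.65), Pou5f1 (0.46), which encodes Oct4, and Gdf3 (0.32) were higher, with calls that ended when 1 library was left out for Pou5f1 (adjusted p = 0.0776 without replicate 3 of C1HV) and Gdf3 (adjusted p = 0.0775 without replicate 4 of C1HV), and for Gdf3 also with the length trend removed (0.27, adjusted p = 0.055). Of the germ cell genes, which share Prdm14 and Tfap2c with other lists, 7 of 26 were lower (26.9%) and 1 was higher. Sycp3, a protein of the meiotic chromosome axis, was at 28.1 ± 6.18 CPM in C1HDT and 65.4 ± 7.98 CPM in C1HV (-1.20). Of the LIF and STAT3 genes, 5 of 13 were lower (38.5%) and 1 was higher, and Stat3 itself fell by 0.54 (adjusted p = 4.8e-05), Pim1 by 0.57 and the receptor gene Lifr by 0.46 (-0.30 with the length trend removed, adjusted p = 0.091), while Jak1 rose by 0.32.

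Postimplantation epiblast genes were higher in C1HDT in 8 of 18 members tested (44.4%, against 9.10%), none was lower and the median was 0.42. With other scalings 7 or 8 were higher and 1 to 3 lower. All 8 had groups that did not overlap. Dnmt3b, a de novo DNA methyltransferase of the epiblast, was at 459, 519, 589 and 533 CPM in C1HDT and at 280.1, 265, 265 and 267 CPM in C1HV. Every C1HDT library was above every C1HV library (0.96 ± 0.09, adjusted p = 3.6e-15). Pou3f1, an early factor of the formative state and the neural path, was at 147, 199, 132 and 152 CPM against 98.2, 89.2, 101 and 91.1 CPM (0.72 ± 0.13, adjusted p = 6.2e-05). Dnmt3a rose by 0.58, Enpp3 by 1.00, Sall2 by 0.55, Sox11 by 0.43 and Otx2, a head and epiblast factor, by 0.23. Leaving out 1 library ended the calls of Sall2 (adjusted p = 0.146 without replicate 4 of C1HV) and Otx2 (adjusted p = 0.111 without replicate 2 of C1HDT), and that of Otx2 ended as well with RLE or library size scaling, with no filter on low counts and with the length trend removed. Fgf5, a marker of the formative epiblast, was at 8.97 ± 3.27 CPM against 6.27 ± 1.08 CPM (0.56 ± 0.32, adjusted p = 0.248). Of the 13 genes of DNA methylation, these 2 methyltransferase genes and Mbd3 were higher, and 3 were lower (23.1% each way), among them Tet2 (-0.99) and Tet1 (-0.34), which oxidise methylcytosine. With the length trend removed Tet1 was at -0.11 (adjusted p = 0.37), which ended its call.

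**Figure D4:**
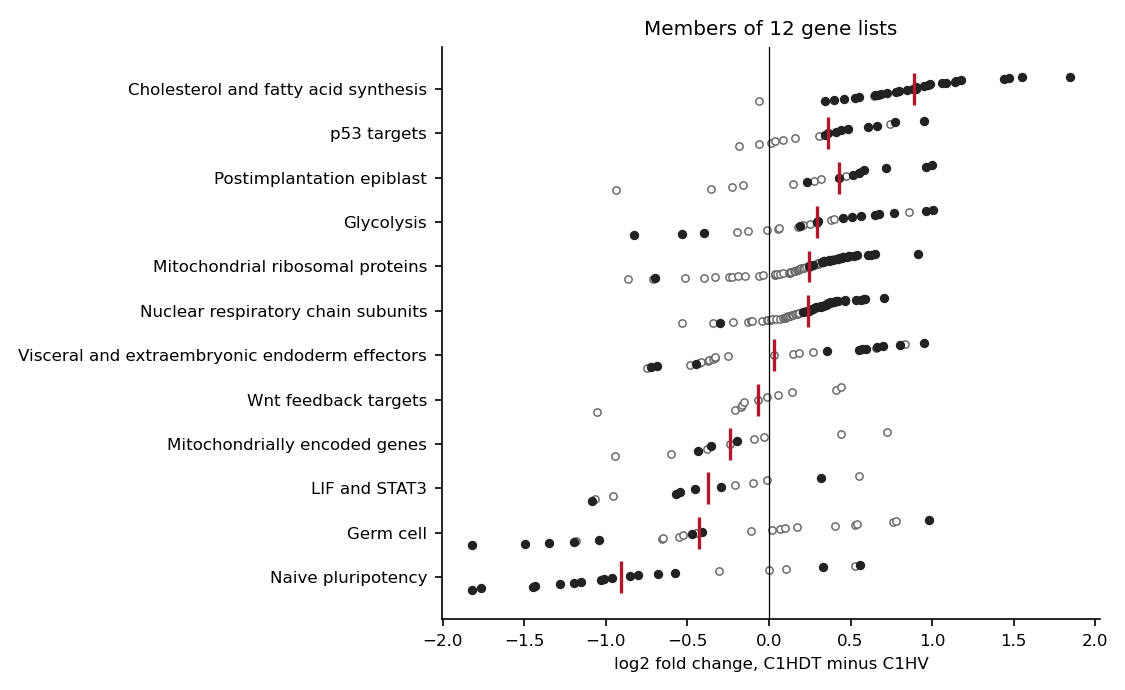
Log2 fold change of C1HDT over C1HV for the tested members of 12 gene lists, filled where the adjusted p was under 0.05, with the median of the members drawn (red line); members with at most 3 counts in every library of both groups are left out. The cholesterol list lies almost wholly above 0, most naive genes lie below it, and the feedback targets are spread around 0.

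Neural ectoderm genes gave 3 higher and 2 lower of 24 tested, or 2 higher and 4 lower with library size scaling. Sox1, an early factor of the neuroectoderm, was at 123, 138, 157 and 153 CPM in C1HDT and at 99.2, 80.1, 96.4 and 97.6 CPM in C1HV, without overlap (0.61 ± 0.10, adjusted p = 4.9e-07). Nes, an intermediate filament of neural progenitors, rose by 0.79. Both genes named here rose, while 2 members of the list fell. Its shares, 12.5% higher and 8.33% lower, were near those of all genes. In mesoderm and the primitive streak, 1 of 22 genes tested passed (Tal1, 1.85), at 4.46 ± 0.984 CPM against 1.11 ± 0.741 CPM, and the call was lost for Tal1 (adjusted p = 0.0568 without replicate 1 of C1HV). DESeq2 called no gene of this list and gave Tal1 no adjusted p. Of the Hox genes, 1 was higher and 1 lower of 25, or 1 and 3 with other scalings and DESeq2, of the trophoblast genes 1 and 3 of 20, of the epithelial and mesenchymal genes 1 and 4 of 24, and of the fibroblast and feeder markers 0 and 1 of 5, or none with DESeq2. These counts can be read against 9.10% of all genes higher and 6.88% lower.

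Genes of the endoderm were expressed in both groups, and some were higher in C1HDT, to be read against 9.10% of all genes higher and 6.88% lower. Among the endoderm transcription factors, Sox17 and Gata4 of 12 tested (16.7%) rose, by 0.84 (adjusted p = 0.00402) and 0.57 (adjusted p = 0.0383), but 6 of the 8 omissions of 1 library ended the call of Gata4 (adjusted p = 0.143 without replicate 2 of C1HV), and with RLE scaling, library size scaling or DESeq2 only 1 factor passed. Of the effectors of visceral and extraembryonic endoderm, 8 of 28 were higher (28.6%) and 3 lower (10.7%), or 7 and 5 with DESeq2, and the summed level of the list overlapped, at 6675 to 7435 CPM in C1HDT and 6637 to 7307 CPM in C1HV. Dab2, an endocytic adaptor of the extraembryonic endoderm, was at 414, 508, 401 and 445 CPM in C1HDT and at 263, 234, 253 and 264 CPM in C1HV, without overlap (0.80 ± 0.14, adjusted p = 1.4e-04). Cited1 (0.95), Spink1 (0.70), Amn (0.55) and Lgmn (0.66) rose as well, and Apoe (-0.72), which codes for a lipid carrier made by many cell types, was among the 3 that fell. The basement membrane list had 5 higher and 3 lower of 18 (27.8% and 16.7%). Col4a1, a chain of type IV collagen, was at 553 ± 56.9 CPM against 382 ± 18 CPM (0.53), and Sparc, which is secreted with it, was at 3241 ± 309.8 CPM against 2149 ± 77.3 CPM (0.59), while fibronectin (Fn1) fell by 0.55. In C1T, the cells that never had dox, Dab2 was far lower at 11.2 ± 3.44 CPM, as were Sox17 at 0.24 ± 0.48 CPM and Col4a1 at 30.4 ± 4.16 CPM. C1T was nearer to C1HDT for 1 of the 11 called effectors, Apoe, and lay beyond C1HV for the other 10, below it for the 8 higher effectors and above it for 2 of the 3 lower ones. The part of endodermal cells in the other differences between C1HDT and C1HV was not tested.

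Nodal signaling, which patterns the epiblast, gave 2 higher and 4 lower of 18 (11.1% and 22.2%, against 9.10% of all genes higher and 6.88% lower), or 1 higher and 4 lower with other scalings. Its feedback inhibitors Lefty2 and Lefty1 fell, by 1.36 from 84.7 ± 9.74 to 32.4 ± 9.59 CPM (adjusted p = 1.1e-10) and by 0.81 from 253 ± 37.2 to 144 ± 26.4 CPM (adjusted p = 1.6e-04), and so did the inhibitory Smad7 (-0.81) and Nodal (-0.42), whose call 4 of the 8 omissions ended, as for Nodal (adjusted p = 0.143 without replicate 3 of C1HV). In FGF and ERK signaling 4 of 28 were higher (14.3%) and 1 lower (3.57%). Etv4, an ETS factor induced by FGF, was at 117, 97, 124 and 114 CPM in C1HDT and at 57.4, 47.7, 38.7 and 44.9 CPM in C1HV, without overlap (1.27 ± 0.14, adjusted p = 1.3e-10). Fgf3 (0.75) and the ERK feedback gene Spry2 (0.32) rose as well. Of the BMP genes, 1 of 18 was higher and 1 lower (Id4, -1.36), 5.56% each way and thus under the shares of all genes. With RLE or library size scaling or DESeq2, none was higher and 1 was lower. Of the retinoid genes 3 of 17 were higher (17.6%), or 2 with other scalings, among them the binding protein gene Crabp1 (0.70) and the receptor gene Rarg (0.48). The ephrins and semaphorins, guidance cues of axons and cells, had 5 lower (16.1%) and none higher of 31, for instance the receptor gene Epha4 (-0.52).

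Glycolytic genes were higher in C1HDT for 11 of 26 members (42.3%) and lower for 3 (11.5%), against 9.10% of all genes higher and 6.88% lower. Their median was 0.29, or 0.27 with low members set to their bound. With RLE or library size scaling 9 were higher, with the length trend removed 8, and with 1 library left out 8 to 13. Ldha, which turns pyruvate into lactate, was at 1133 ± 98.3 CPM in C1HDT and 666 ± 63.3 CPM in C1HV (0.77 ± 0.07, adjusted p = 2.2e-17), and its partner subunit gene Ldhb fell by 0.83. Pdk1, which holds pyruvate back from mitochondria, rose by 0.97 and the glucose transporter gene Slc2a1 by 0.51. Txnip, which restrains glucose uptake, was at 256, 217, 139.5 and 188 CPM in C1HDT and 552, 581, 569 and 611 CPM in C1HV, without overlap (-1.52 ± 0.16, adjusted p = 5.5e-08). Of the 21 folate and one-carbon genes 5 were higher (23.8%) and 1 lower (4.76%), or 3 and 1 with library size scaling, led by Mthfd1l (0.64) and Gart (0.56).

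Nuclear genes for mitochondrial proteins also leaned upwards, with 31 of 70 respiratory chain subunits higher and 1 lower (median 0.24) and 28 of 75 mitochondrial ribosomal proteins higher and 1 lower (median 0.25), against 9.10% of all genes higher and 6.88% lower. Cox7a2, a small subunit of cytochrome oxidase, was at 733 ± 38.2 CPM in C1HDT and 448 ± 37.4 CPM in C1HV (0.71 ± 0.07, adjusted p = 2.4e-14), and Mrpl14 at 50.4 ± 3.4 against 26.7 ± 2.85 CPM (0.91 ± 0.14). In contrast, none of the 12 genes encoded in mitochondrial DNA was higher and 3 were lower, among them the complex I gene mt-Nd5 (-0.36). All their reads together were 0.679% ± 0.0467 of the gene counts in C1HDT and 0.862% ± 0.0588 in C1HV (SD, n = 4; exact permutation test, p = 0.0286). Over all genes tested, the calls moved with transcript length. Split into 4 equal sets by annotated length, the shortest genes, up to 2049 bases, had 506 higher and 160 lower. The longest, from 4678 bases, had 175 higher and 468 lower. With the length trend removed, 26 mitochondrial ribosomal and 23 respiratory chain genes were higher. With DESeq2, 27 respiratory chain genes were higher and 3 lower, and with library size scaling 25 were higher and 2 lower. Without replicate 4 of C1HV, or without replicate 4 of C1HDT, 17 mitochondrial ribosomal proteins were higher, and without replicate 2 of C1HV 18 respiratory chain subunits.

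Targets of p53, the factor of DNA damage and growth arrest, were higher in 9 of 17 members tested (52.9%, against 9.10%), and none was lower, with a median of 0.36. All 9 had groups that did not overlap. Btg2, an inhibitor of proliferation, was at 42.9, 62.6, 46.9 and 54.5 CPM in C1HDT and at 27.9, 25, 28 and 24.7 CPM in C1HV (0.95 ± 0.15, adjusted p = 1.7e-07). Cdkn1a, which encodes the cell cycle inhibitor p21, rose by 0.41 ± 0.08 (adjusted p = 1.1e-04), Mdm2 by 0.34, Ccng1 by 0.49 and the proapoptotic Bbc3 by 0.61. Trp73, a relative of p53, was at 11.6, 12.4, 14.2 and 5.79 CPM against 3.1, 5.68, 3.01 and 3.9 CPM (1.48 ± 0.34). Proliferation genes gave 6 higher and 2 lower of 30 (20.0% and 6.67%, the latter near the 6.88% of all genes), but 4 higher and 5 lower with library size scaling. The G1 cyclins and CDK inhibitors gave 4 and 1 of 15 (26.7% and 6.67%), or 4 and 2 with other scalings and DESeq2, and the MYC network 0 and 1 of 11 (Mnt, -0.46). The integrated stress response was split, with 5 higher, or 2 or 3 under other scalings and filters, and 10 lower (30.3%) of 33, of which Psat1 (0.65), which makes serine, was the highest and Stc2 (-1.04), Cebpg (-0.97) and Chac1 (-0.66) were among the lowest. Of the imprinted genes 7 were higher (30.4%) and 4 lower (17.4%) of 23, or 4 and 4 with library size scaling, and of the LIN28, HMGA and IGF2BP genes 1 of 7 was higher (Igf2bp3, 0.27), with a call that 1 omission ended, Igf2bp3 (adjusted p = 0.0839 without replicate 2 of C1HV).

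The greatest fitted change of all genes was that of Lrrc55 (chr2:85162334-85197197, GRCm38), which encodes a leucine-rich repeat protein that modulates BK potassium channels. Lrrc55 was at 0.34, 0, 0 and 0 CPM in C1HDT and at 21.7, 39.8, 23.2 and 18.2 CPM in C1HV. A single read was counted over the C1HDT libraries, and set against 3 counts per library the level was at least 21.8-fold lower in C1HDT (adjusted p = 8.4e-23). Over the series, the 4 groups without dox in their last treatment (C1, C1T, C1MV and C1HV) had means of 15.8 to 25.7 CPM and the 4 groups with dox (C1M, C1H, C1MDT and C1HDT) had means of 0.085 to 1.45 CPM, which includes cells of day 0. In the moderate fraction the fitted change was -7.26 (adjusted p = 5.4e-22).

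By the naming rule, the 15 greatest rises and the 15 greatest decreases were taken among the 1071 and 667 called genes with groups that did not overlap and a mean of at least 5 CPM. Besides genes named above, the rises reported here held Pim2 (1.40), a survival kinase that is a relative of Pim1, Nptxr (1.44), a neuronal pentraxin receptor, the zinc finger gene Zfp771 (1.45), Cdc42ep1 (1.37), Smim3 (1.39), Wipf3 (1.31) and Lexm (1.29). Pim2 was at 87.4, 80.7, 111 and 90.6 CPM in C1HDT and 40.3, 28.4, 33.6 and 37.7 CPM in C1HV, without overlap. The decreases held Ltbp1 (-2.26), which binds latent TGF-β, Shisa2 (-2.22), an antagonist of Wnt and FGF receptors, G0s2 (-2.06), an inhibitor of lipolysis, the water channel gene Aqp3 (-1.82), the junction gene Jam2 (-1.58), osteopontin (Spp1, -1.51), the imprinted Plagl1 (-1.57), Mapt (-1.50), which encodes tau, Crtac1 (-2.10), Napsa (-2.09) and Hist1h4n (-1.55), a histone gene with near-identical copies whose counts are uncertain. Leaving out 1 library ended the calls of Lexm (adjusted p = 0.159 without replicate 3 of C1HV) and Hist1h4n (adjusted p = 0.0513 without replicate 2 of C1HV). Neat1, the long noncoding RNA that builds paraspeckles, was at 45.2, 51.1, 54.9 and 41.9 CPM in C1HDT and at 158, 132, 144 and 151 CPM in C1HV. All C1HDT libraries were below all C1HV libraries (-1.61 ± 0.10, adjusted p = 1.2e-30).

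The moderate fraction gives the same contrast in libraries that share none with C1HDT and C1HV, although the joint fit gives both contrasts 1 estimate of the spread. There 1924 of 15280 genes differed (12.6%), of which 1015 were higher (6.64%) and 909 lower (5.95%) with inducers. Of the 2442 genes called in the high fraction, 2286 had the same sign in the moderate one (93.6%, against 67.5% of all genes), and 1159 were called in both, which is 47.5% of the calls in the high and 60.2% of those in the moderate fraction. Of these, 1158 had the same sign. The median absolute log2 fold change of the genes called in the high fraction was 0.51 there and 0.32 in the moderate fraction, where they had not been chosen. By their counts the lists leaned the same way, with 26 cholesterol genes higher and none lower, 13 naive genes lower and 1 higher, 8 epiblast genes higher and 7 p53 targets higher, while in the moderate fraction 6 mitochondrial ribosomal genes were higher and 1 lower of 75, and 8 respiratory chain genes were higher and 5 lower of 70 (6.64% and 5.95% of all genes there). Ctnnb1 differed by 1.74 there and by 2.26 in the high fraction.

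**Figure D5:**
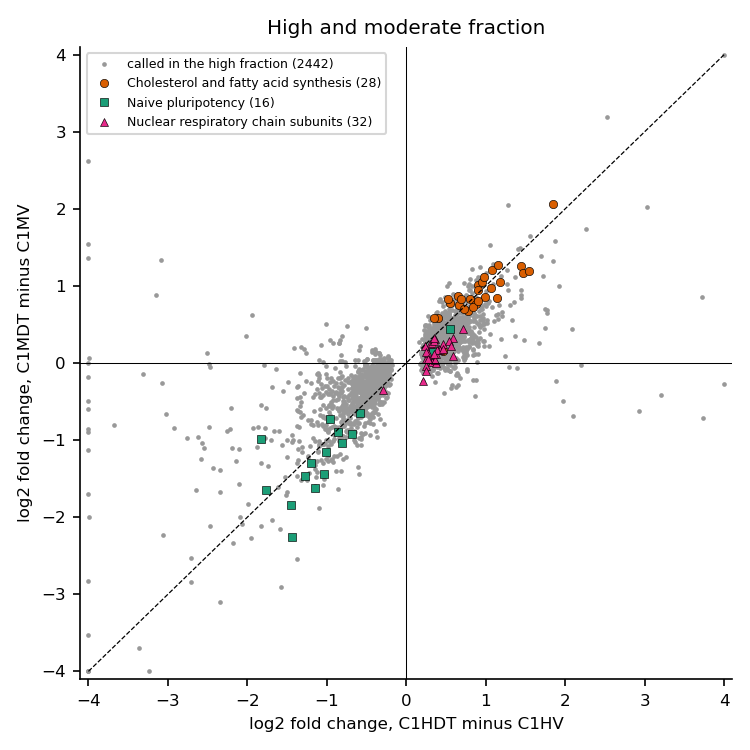
Log2 fold change with inducers in the moderate fraction (C1MDT over C1MV) against that in the high fraction (C1HDT over C1HV) for the 2442 genes called in the high fraction, with values beyond 4 drawn at 4 and -4. Most points lie in the quadrants of equal sign, 2286 of 2442, and the genes were chosen on the high fraction only.

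The difference of both contrasts, tested as an interaction of inducers and fraction, reached an adjusted p under 0.05 for none of the 15280 genes by edgeR's quasi-likelihood test, with 1284 at an unadjusted p under 0.05 and a lowest adjusted p of 0.104. DESeq2 gave 22 genes. The 5 genes with the lowest interaction p were Rpl13a, Stox2, Cox4i1, Gpx1 and Hnrnph1. Hnrnph1, a splicing factor gene, changed by -0.97 in the high and -0.34 in the moderate fraction, a difference of -0.64 (adjusted p = 0.104), and Stox2 by -0.83 and 0.02. By this test no gene was shown to respond differently to the inducers in the 2 fractions.

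C1T stands outside the tested contrast and is given as a description, since C1T also lacked dox before plating. Like C1HDT and unlike C1HV, it had TMP during differentiation, and the part of TMP in its position was not tested. Its mean was nearer to C1HDT than to C1HV for 612 of the 1390 genes higher in C1HDT (44.0%) and for 453 of the 1052 lower ones (43.1%). Against these shares stand 23 of 28 for the called cholesterol genes, 6 of 8 for the epiblast genes, 6 of 9 for the p53 targets, 14 of 29 for the mitochondrial ribosomal proteins and 8 of 32 for the respiratory chain subunits.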

How the data were processed

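The 32 libraries (8 groups of 4) were QuantSeq 3′ mRNA libraries read as single 100 nt reads. According to the study's methods, the authors used bbduk for trimming, STAR for alignment (mm10) and htseq-count for the counts per gene. Builds and tools in the submitters' processing notes are mm10 and STAR. The deposited values are raw counts for 31053 genes, with 1366951 to 3648787 counts on genes per library. Floors cover counting error only, while SDs and SEs include the spread between libraries. Rows for reads outside features, ambiguous and not uniquely placed were left out of library sizes and tests, and the last made up 53.0% to 55.1% of all rows' counts in the 8 libraries of the contrast. Since 3′ tags mark one end of a transcript, counts of overlapping or near-identical genes can be split.

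The filter asked for 1 CPM or more in 4 or more libraries, and the 15280 genes left were fitted over all 8 groups with edgeR 4.0.16 in R 4.3.3 (TMM scaling, quasi-likelihood test, Benjamini-Hochberg adjustment, threshold 0.05), with contrasts C1HDT minus C1HV, C1MDT minus C1MV and their difference. DESeq2 1.42.0 served as an alternative. CPM values are counts over TMM-scaled library sizes. Gene names were taken from the reference tables given with the files, with 30934 of 31053 IDs matched.

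The members, the 39 gene lists, the motifs and the alternatives were chosen with earlier results of these data known. Members of the lists could be named, and outside them the 15 greatest rises and 15 greatest decreases among called genes with groups that did not overlap and a mean of at least 5 CPM, leaving out predicted gene models, plus the 5 lowest interaction p. Some members that this rule names are not reported here. Lists are described by counts and medians, with no test of a list. Promoter windows are those of RefSeq (GRCm38.p6).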

Additional observations from a re-analysis of the deposited data

Results flagged for a closer look

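In each group of 4 libraries, a library whose gap to the nearest other one took up more of the group's range than Dixon's 95% limit was singled out, for each gene named and each library measure. Of 266 groups checked, 15 (5.64%) had such a library, and chance gives about 1 in 20. No explanation was tested.

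In C1HDT, replicate 1 stood above the other 3 libraries for Zfp42 (62.9 against 28.6 to 32 CPM), Prdm14 (2.72 against 0.681 to 0.955 CPM) and Pim1 (65.3 against 52.6 to 54.5 CPM), and it held the only count of Lrrc55 (0.340 against 0 CPM). Replicate 3 of C1HDT was above the others for Smim3 (17.2 against 10.9 to 11.9 CPM) and below them for Msmo1 (456 against 489.8 to 494 CPM). Replicate 2 of C1HDT had a share of reads outside features of 10.1%, against 11.3% to 11.5%.

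In C1HV, replicate 2 was below the other libraries for Lgmn (26.1 against 31.9 to 32.7 CPM), Mthfd1l (172 against 238 to 241 CPM), Otx2 (279 against 296 to 299 CPM) and Sox1 (80.1 against 96.4 to 99.2 CPM). Replicate 1 was above the others for Dnmt3b (280.1 against 265 to 267 CPM) and Spink1 (154 against 130.4 to 133 CPM), replicate 4 for Col4a1 (409 against 370.5 to 376 CPM), and replicate 3 was below them for Smad7 (23.2 against 31.5 to 32.5 CPM).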

How the results depend on the processing

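The count of genes that differed between C1HDT and C1HV stayed within 2323 to 2603 under other scalings, tests, filters and sample choices, apart from 2287 with no filter on low counts and 2240 with the length trend removed, and within 1766 to 2382 when 1 library was left out, with 1766 without replicate 2 of C1HV. The settings with day 4 libraries only (2323 genes) and with the length trend removed were chosen after the data were seen. Of 123 called genes named, 103 kept their call in every setting in which they were tested, 20 lost it in at least 1 setting and none reversed. Of the 12 lost outside leave-one-out, Apc, Lifr and Tet1 were lost only with the length trend removed (adjusted p = 0.23, 0.091 and 0.37).

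The interaction gave 22 genes with DESeq2, which kept an adjusted p for 1061 genes, 11 with no filter and 0 to 21 with 1 library left out, most without replicate 4 of C1MV. Without 1 library, 17 to 29 mitochondrial ribosomal and 18 to 32 respiratory chain genes were higher, with 20 of the latter without replicate 4 of C1HDT. The stress response had 3 higher members with DESeq2, with no filter, with only the groups compared, with day 4 libraries only and with the length trend removed, 2 with RLE or library size scaling and with at least 1 CPM in all libraries, and 2 to 6 with 1 library left out. Its lower members ranged from 5 to 10, with 5 without replicate 2 of C1HV. The difference in the mitochondrial share ranged from -0.201 to -0.153 and in the share outside features from -2.64 to -1.95 percentage points, with p = 0.0571 in an exact permutation test, the smallest that 3 against 4 libraries allow. The causes were not tested.

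Libraries with the same replicate number shared only that number, although the study treated replicates as batches in a check of its own: their deviations correlated at -0.067 to -0.012 in C1HDT and C1HV, against -0.019 to 0.049 for other pairs, and 0 of 4 were closest to their own number. A replicate block gave 2404 genes, of which 2376 were among the 2442, and 1858 in the moderate fraction against 1924. With the block the calls of Ctnnd2 and Tle4 ended (adjusted p = 0.058 and 0.051). Depth limits low genes: 3 counts are 0.998 to 2.00 CPM in these 8 libraries.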

Other observations

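The 39 gene lists were chosen with earlier results of these data known. Some gene families outside them, chosen after their values were seen, had members that passed the test between C1HDT and C1HV. No family was tested as a whole. Their counts can be read against 9.10% of all genes higher and 6.88% lower in the high fraction and 6.64% and 5.95% in the moderate one. Of 39 proteasome subunits, 15 were higher in C1HDT and none was lower (median 0.23), or 12 to 15 higher and 1 lower with other scalings, and in the moderate fraction 11 were higher and none was lower. Of 52 cytosolic proteins of the large ribosomal subunit 18 were higher and 2 lower, while 3 were higher and 9 lower in the moderate fraction, and of 44 of the small subunit 6 were higher and 1 lower, against 3 higher and 6 lower. The lean of both ribosomal families in the high fraction depended on the scaling, with 11 higher and 8 lower and with 3 higher and 2 lower when only library size was used. Among 57 replication-dependent histone genes, whose copies are nearly identical and whose transcripts mostly lack a poly(A) tail, none was higher and 9 were lower (median -0.47). Of 4 metallothionein genes 2 were lower.

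By gene type, 1376 of 14426 protein-coding genes were higher and 1021 lower, 9 of 502 lincRNA genes were higher and 19 lower (median -0.19), and 4 of 326 antisense genes were higher and 11 lower (median -0.11). The lincRNA and antisense genes thus had smaller shares of calls than the 9.10% higher and 6.88% lower of all genes, in either direction. The counts shifted with transcript length in 4 equal sets of genes from short to long, with medians of 0.08, 0.05, -0.00 and -0.09 on the log2 scale. In the moderate fraction these sets had medians of -0.04, 0.00, -0.01 and -0.02.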
